A study of Homo sapiens with 4 samples.

Results

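The genes described here are 9 members of the NRF2 antioxidant pathway, *NFE2L2*, *KEAP1*, *GCLC*, *GCLM*, *NQO1*, *HMOX1*, *TXNRD1*, *SRXN1* and *AKR1B10*, chosen by name for their known roles, with earlier results of these data known. They were read from the 63677 genes counted by RNAseq in FLO-1LM and FLO-1 parental cells. FLO-1 is a long-used cell line from a human adenocarcinoma of the esophagus. FLO-1LM is a single subline of it, grown from a liver metastasis after tumor cells had been passed repeatedly through NSG mice, a severely immunodeficient strain that lacks T, B and natural killer cells. Each line had 2 libraries, and the cells of both were untreated and were harvested at 80% confluency, 24 hours after a change of medium. The comparison asks whether the antioxidant program differed between the metastatic subline and the cells it came from.

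NRF2, encoded by *NFE2L2*, is a transcription factor that switches on genes for glutathione and thioredoxin chemistry, NADPH supply, quinone reduction and heme breakdown. In unstressed cells KEAP1 holds NRF2 and passes it to a CUL3 ubiquitin ligase for destruction. Oxidants and electrophiles modify KEAP1, after which NRF2 accumulates, pairs with a small MAF protein and binds antioxidant response elements in DNA. Because this control acts on the protein, the mRNA of *NFE2L2* is not a measure of NRF2 activity, and the mRNA of its targets is the usual readout. The pathway is known for its activation in many squamous tumors, including those of the esophagus.

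The core of the antioxidant response element, the DNA sequence that NRF2 binds, is TGACNNNGC. It was searched on both strands of RefSeq promoter windows on GRCh38.p14, each 300 bases long, from 250 bases before to 50 bases after an annotated start. The motif was present in 3 of the 7 members with a window, *GCLM*, *KEAP1* and *TXNRD1*, and in 16.1% of all genes with a window. Each match is shown because these promoters belong to genes whose expression is described below. The sequences run 5′ to 3′ on the strand that carries the motif, with the motif in capitals and its position on the same build.
GCLM, chr1:93909448-93909472, plus strand: gaagacaaTGACTAAGCagaaatcg
KEAP1, chr19:10502786-10502810, plus strand: ggtcaccaTGACTAAGCagagccgg
KEAP1, chr19:10502809-10502833, minus strand: ttttattgTGACACGGCgggcgccc
TXNRD1, chr12:104215672-104215696, plus strand: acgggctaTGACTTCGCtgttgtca
TXNRD1, chr12:104215763-104215787, minus strand: gtgggaacTGACGGAGCcgaaggac
TXNRD1, chr12:104286922-104286946, minus strand: agtcagaaTGACAAAGCagaaatcc
The first matches of *GCLM* and *KEAP1* share the same 9 letters. *NFE2L2*, *NQO1*, *GCLC* and *SRXN1* had no match in these short windows, which says nothing of elements further away, and *HMOX1* and *AKR1B10* had no window. A match is a run of letters and not a measured binding site.

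Libraries held 19060310 to 25920336 counts, and 17143 genes had enough counts to be tested. Libraries of 1 line differed by more than counting noise, so each was taken as a separate library. A chi-square statistic of the counts over its degrees of freedom was 7.85 between the FLO-1LM libraries and 3.7 between the parental libraries. Between libraries of different lines it was 8.74 to 10.8, so the FLO-1LM libraries differed nearly as much from each other. No source says that the libraries came from separate cultures, and p-values then measure the spread between these libraries, which may be technical. A batch that followed the line cannot be told apart from the line. Of 6 markers of simple epithelium, 5 were tested. All 5 were lower in FLO-1LM at an edgeR adjusted p below 0.05, as were 1.83% of all tested genes. The summed level was 489.1 to 504.6 CPM (counts per gene relative to the size of the library) in FLO-1LM and 863.2 to 873.6 CPM in parental cells. Most of that sum was *KRT8* and *KRT18*. The sixth marker, *EPCAM*, had at most 0.466 CPM in any library. Of 13 hepatocyte markers, 9 including *ALB* were at 0 in all 4 libraries, and the sum of the list was 13.5 to 14.9 CPM in FLO-1LM and 16.4 to 18.1 CPM in parental cells. Nearly all of it was *SERPINA1*, with 14.8 and 13.2 CPM in FLO-1LM and 18.1 and 16.3 CPM in parental cells. Summed fibroblast markers had 11.1 to 13.1 and 10.01 to 12.8 CPM, leukocyte markers 0.971 to 1.17 and 0.544 to 0.678 CPM, and endothelial markers at most 0.313 CPM. Nearly all of the fibroblast sum was *COL1A1*, with 12.7 and 10.6 CPM in FLO-1LM and 12.5 and 9.70 CPM in parental cells. No other fibroblast marker was above 0.427 CPM in any library. Cells left over from the host would be mouse cells, and the reads were mapped to the human genome. These marker levels therefore cannot show whether host cells were present. The part of other cell types in the results was not tested.

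Differences in the NRF2 program between the 2 lines were small, and most were within the spread of the libraries of a line. Of the 9 genes, 7 had enough counts to be tested, and 0 of these 7 passed an adjusted p of 0.05 in edgeR, where 2.23% of all tested genes passed, 0.402% as higher and 1.83% as lower in FLO-1LM. Limma voom and DESeq2 also called 0 of the 7, against 2.15% and 1.97% of all tested genes, and 0 of the 7 had an unadjusted edgeR p below 0.05, against 12.4%. Log2 fold changes of FLO-1LM against parental cells were positive for 5 members and negative for 2, from −0.14 to 0.13, and the sign of *TXNRD1* turned when libraries were scaled by their totals alone. Their median was 0.07 and their median absolute value 0.09, beside 0.0016 and 0.14 over all tested genes. Only *NFE2L2* and *HMOX1* had values that did not overlap between lines, 2 of 7 members, beside 42.6% of all tested genes.

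**Figure D1:**
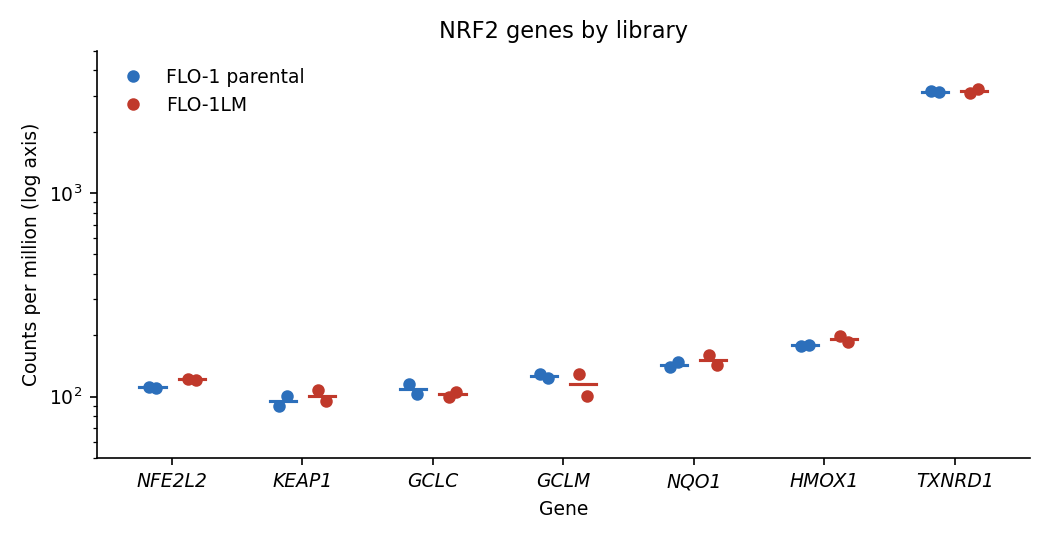
Expression of the 7 tested members in the 4 libraries, in CPM on a log axis, with 1 point per library (blue, parental; red, FLO-1LM) and a short line at the mean of each line of cells. *TXNRD1* lies between 3102 and 3228 CPM, and the other 6 genes lie between 89.8 and 198.8 CPM.

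The regulators are described first. *NFE2L2* (ENSG00000116044), on GRCh37 chromosome 2 from 178083395 to 178257484 on the minus strand, encodes NRF2 itself. It had 121.4 and 121.3 CPM in the FLO-1LM libraries and 111.5 and 110.7 CPM in the parental libraries. Both FLO-1LM libraries were above both parental libraries, by a small margin, with means of 121.3 ± 0.074 and 111.1 ± 0.59 CPM (SD, n = 2 each). The log2 fold change was 0.13 (SE 0.08, 95% interval −0.04 to 0.29), and the edgeR adjusted p was 0.561 by the Benjamini-Hochberg method. As a fold, the interval ran from 0.976 to 1.22. Exons of *NFE2L2* in the annotation used share 3509 bases with *HNRNPA3* on the opposite strand, a gene with 4052 to 5046 counts per library, and the strand setting of the counting is not given in the sources used here. Reads of the genes can be told apart only where strand was used.

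*KEAP1* (ENSG00000079999), on chromosome 19 from 10596801 to 10614234 on the minus strand, encodes the adaptor that sends NRF2 for destruction. It had 107.4 and 94.8 CPM in FLO-1LM and 89.8 and 100.4 CPM in parental cells. The lines overlapped, with means of 101.1 ± 8.93 and 95.1 ± 7.48 CPM (SD, n = 2 each). The log2 fold change of 0.09 (SE 0.09, interval −0.10 to 0.28) did not pass the test (edgeR adjusted p = 0.783), and it was −0.0041 without FLO-1LM replicate 1.

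The catalytic and the modifier subunit of glutamate-cysteine ligase, the enzyme of the first and rate-limiting step of glutathione synthesis, are encoded by *GCLC* and *GCLM*. *GCLC* (ENSG00000001084, chromosome 6, 53362139 to 53481768, minus strand) had 99.6 and 105.8 CPM in FLO-1LM and 115.2 and 103.1 CPM in parental cells. The parental library 2 fell between the FLO-1LM libraries. The log2 fold change was −0.09 (SE 0.08, interval −0.26 to 0.09, edgeR adjusted p = 0.763), with means of 102.7 ± 4.36 and 109.2 ± 8.57 CPM (SD, n = 2 each), and it ran from −0.17 to −0.0062 with 1 library left out. *GCLM* (ENSG00000023909, chromosome 1, 94350755 to 94375012, minus strand) had 129.5 and 100.8 CPM in FLO-1LM and 129.7 and 123.6 CPM in parental cells. One FLO-1LM library lay with the parental libraries and the other lay below them, so the spread within FLO-1LM was the widest, relative to its mean, of the 7 tested members in that line. Over all 4 libraries the log2 fold change was −0.14 (SE 0.10, interval −0.35 to 0.07, edgeR adjusted p = 0.642). Its value rested on which FLO-1LM library was kept. Without FLO-1LM replicate 1 the log2 fold change was −0.33 and passed the test (edgeR adjusted p = 0.0083), and without FLO-1LM replicate 2 it was 0.032 (adjusted p = 0.899).

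*NQO1* (ENSG00000181019), on chromosome 16 from 69740899 to 69760571 on the minus strand, encodes the quinone reductase whose expression is a standard readout of NRF2 activity. It had 159.7 and 142.2 CPM in FLO-1LM and 139.4 and 147.6 CPM in parental cells. The lines overlapped, and the means of 150.9 ± 12.3 and 143.5 ± 5.76 CPM (SD, n = 2 each) lay closer together than the spread of FLO-1LM. The log2 fold change was 0.07 (SE 0.08, interval −0.10 to 0.24, fold interval 0.934 to 1.18, edgeR adjusted p = 0.809), and it was −0.013 without FLO-1LM replicate 1.

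*HMOX1* (ENSG00000100292), on chromosome 22 from 35776354 to 35790207 on the plus strand, encodes the inducible heme oxygenase, which breaks heme into biliverdin, iron and carbon monoxide and is repressed by BACH1 as well as activated by NRF2. It had 198.8 and 185.9 CPM in FLO-1LM and 176.4 and 180.0 CPM in parental cells. The FLO-1LM libraries were both above the parental libraries, with means of 192.4 ± 9.18 and 178.2 ± 2.59 CPM (SD, n = 2 each). The log2 fold change of 0.11 (SE 0.07, interval −0.05 to 0.27) did not pass the test (edgeR adjusted p = 0.628).

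*TXNRD1* (ENSG00000198431), on chromosome 12 from 104609557 to 104744085 on the plus strand, encodes the cytosolic selenoenzyme that recharges thioredoxin with electrons from NADPH. It stood apart from the other members by its level and had the smallest difference between the lines. It had 3102 and 3228 CPM in FLO-1LM and 3177 and 3127 CPM in parental cells. The parental values fell inside the range of FLO-1LM, and the means were 3165 ± 89.4 and 3152 ± 35.2 CPM (SD, n = 2 each). The log2 fold change was 0.0059 (SE 0.06, interval −0.12 to 0.13, fold interval 0.919 to 1.10, edgeR adjusted p = 0.986). The gene took 0.305% to 0.322% of all counts, and by mean CPM it ranked 3 among genes of the nuclear genome, after *ENO1* and *MALAT1*.

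**Figure D2:**
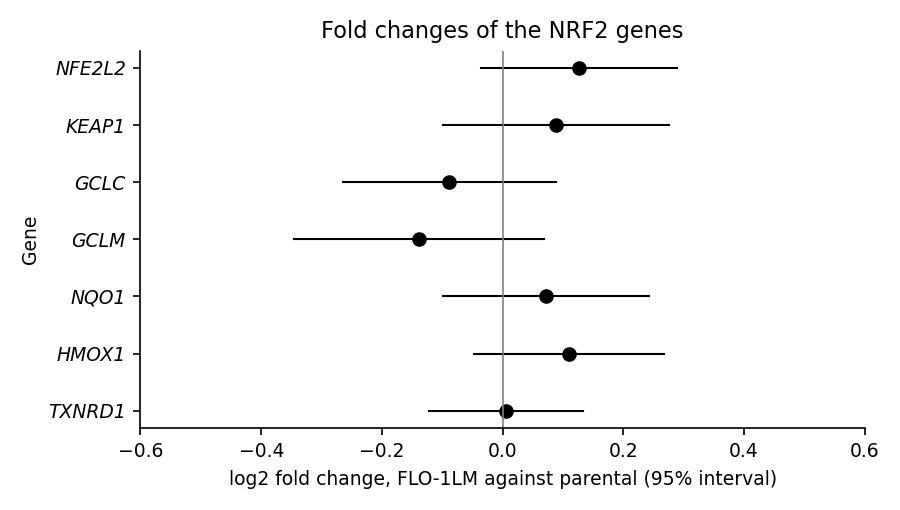
Log2 fold change of FLO-1LM against parental cells for the 7 tested members, each point with its 95% interval from edgeR as a horizontal line, and a vertical line at 0. The interval of every one of these members includes 0, and the estimates run from −0.14 for *GCLM* to 0.13 for *NFE2L2*.

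*SRXN1* and *AKR1B10* were not tested. *AKR1B10* (ENSG00000198074, chromosome 7, 134212319 to 134226164, plus strand), an aldo-keto reductase that is strongly induced where NRF2 is constitutively active, had 0 counts in all 4 libraries, which allows up to 3 counts per library, or 0.117 to 0.156 CPM. These limits cover counting error only. *SRXN1* (ENSG00000271303, chromosome 20, 627259 to 633844, minus strand), which encodes sulfiredoxin, an enzyme that repairs overoxidized peroxiredoxins, had 0 and 0 counts in FLO-1LM and 8 and 3 in parental cells. Its level could not be read from these files, because 2292 of its 2528 exon bases are shared on the same strand with a second annotated gene, ENSG00000270299, which held 0, 0, 0 and 1 counts. Reads that fit both genes may have been counted for neither, and how they were treated is not given in the sources used here.

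Levels were compared between members after division by gene length, as CPM per kilobase of exon. Per kilobase *TXNRD1* was highest, with a mean over the 4 libraries of 470.7, followed by *HMOX1* at 80.3, *NQO1* at 49.6, *KEAP1* at 27.5, *GCLM* at 22.3, *GCLC* at 12.3 and *NFE2L2* at 7.76. *TXNRD1* was 5.86 times *HMOX1*, or 7.28 times with the length of the longest transcript. The order from *TXNRD1* to *KEAP1* held with either length, and no library of one of these 4 genes reached the range of the next. Below *KEAP1* the order depended on the length used. With the longest transcript *GCLC* had 28.0, *GCLM* 24.8 and *NFE2L2* 22.8, and *GCLM*, from 20.6 to 26.6 over the libraries, overlapped both *GCLC* and *NFE2L2*.

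The pathway around these members was examined through 9 lists with 104 genes, of which 84 were tested. In edgeR 3 of the 84 passed the test, the higher ferritin light chain gene *FTL* and the lower *FTH1* and *SOD2*, and 12 of the 84 had an unadjusted p below 0.05. These are 3.57% and 14.3% of the tested list genes, near the 2.23% and 12.4% of all tested genes. Log2 fold changes were positive for 47 and negative for 37, and the median was 0.02, with list medians from −0.08 for efflux transporters to 0.14 for heme and iron handling, beside 0.0016 over all tested genes. Values did not overlap between lines for 41 of the 84, or 48.8%, beside 42.6% of all tested genes. The counts of each list below are to be read against the same 2.23%, 12.4% and 42.6%, and with few genes in a list they show nothing particular to it. The other 20 genes had too few counts to be tested. One of them is *TXNIP*, for an inhibitor of thioredoxin, whose identifier differs between annotation releases, so no level is read from it.

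**Figure D3:**
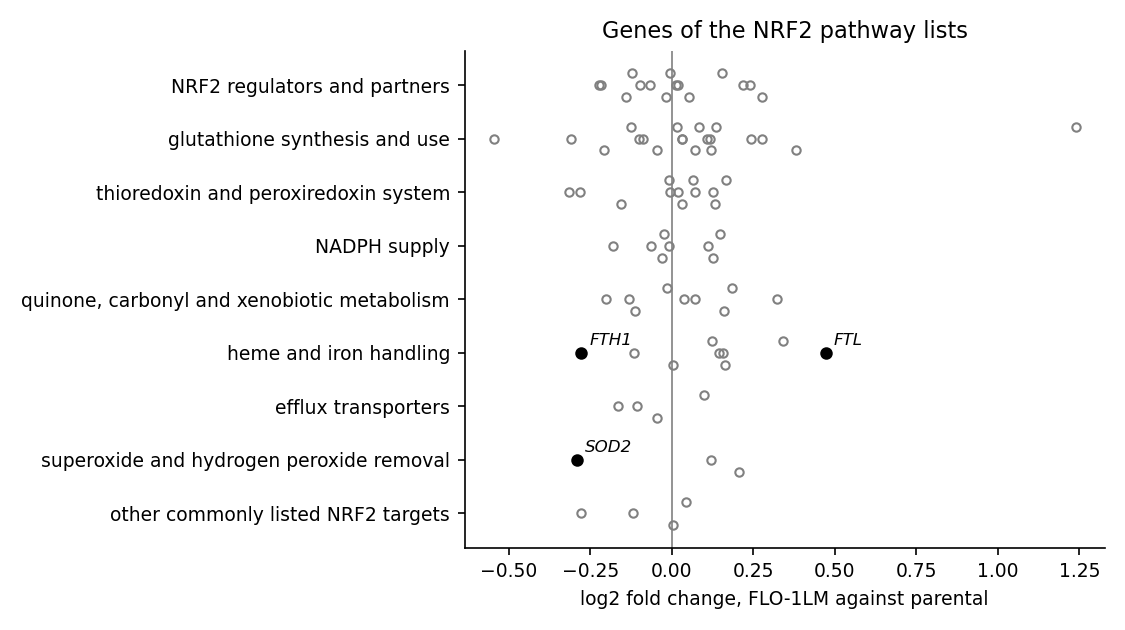
Log2 fold changes of FLO-1LM against parental cells for the 84 tested genes of the 9 pathway lists, with 1 point per gene and filled, named points for genes past an adjusted p of 0.05. The 3 filled points are *FTL*, *FTH1* and *SOD2*, and the open point at 1.24 in the glutathione list is *GSTM1*, which did not pass the test.

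Iron handling held the clearest difference. Ferritin is a shell of light and heavy chains that stores iron, and both chain genes are known NRF2 targets. The heavy chain oxidizes iron for storage and the light chain helps it mineralize. *FTL* (ENSG00000087086, chromosome 19, 49468566 to 49470136, plus strand) had 646.4 and 646.6 CPM in FLO-1LM and 437.2 and 495.4 CPM in parental cells. It was upregulated in FLO-1LM, with a log2 fold change of 0.47 (SE 0.07, interval 0.32 to 0.63, 1.39-fold, edgeR adjusted p = 0.00107). The call was lost without parental replicate 1, where the log2 fold change was 0.38 (adjusted p = 0.0975). *FTH1* (ENSG00000167996, chromosome 11, 61727190 to 61735106, minus strand), for the heavy chain, moved in the opposite direction, with 537.4 and 527.9 CPM in FLO-1LM and 639.5 and 651.6 CPM in parental cells. It was downregulated, with a log2 fold change of −0.28 (SE 0.07, interval −0.42 to −0.14, edgeR adjusted p = 0.0343), and lost its call without parental replicate 1 (−0.29, adjusted p = 0.353) or without parental replicate 2 (−0.27, adjusted p = 0.425). In these bulk RNA samples, fewer cells with a transcript and less of it per cell cannot be told apart.

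The ratio of *FTL* to *FTH1* in CPM was 1.20 and 1.23 in the FLO-1LM libraries and 0.684 and 0.760 in the parental libraries. It was thus higher in both FLO-1LM libraries than in either parental library. That follows from the values of *FTL* and *FTH1* given above, so the ratio restates their differences and is no further result. Gene length was not taken into account, so the ratio does not say which of the chain genes had more transcripts. Both genes have processed pseudogenes that can share their reads. With the counts of 16 named *FTL* and 25 named *FTH1* pseudogenes added, the log2 fold changes were 0.43 (edgeR adjusted p = 0.0024) and −0.27 (adjusted p = 0.037). The *FTL* pseudogene *FTLP3* was itself called higher, with 200.4 and 220.8 CPM in FLO-1LM and 155.8 and 179.3 CPM in parental cells (log2 fold change 0.33, edgeR adjusted p = 0.0438), and its reads are uncertain for the same reason. *FTH1* also shares 1267 exon bases with *BEST1* on the opposite strand, which had 78 and 50 counts in FLO-1LM and 380 and 404 in parental cells, lower in FLO-1LM like *FTH1*. Its part in the *FTH1* value was not tested.

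**Figure D4:**
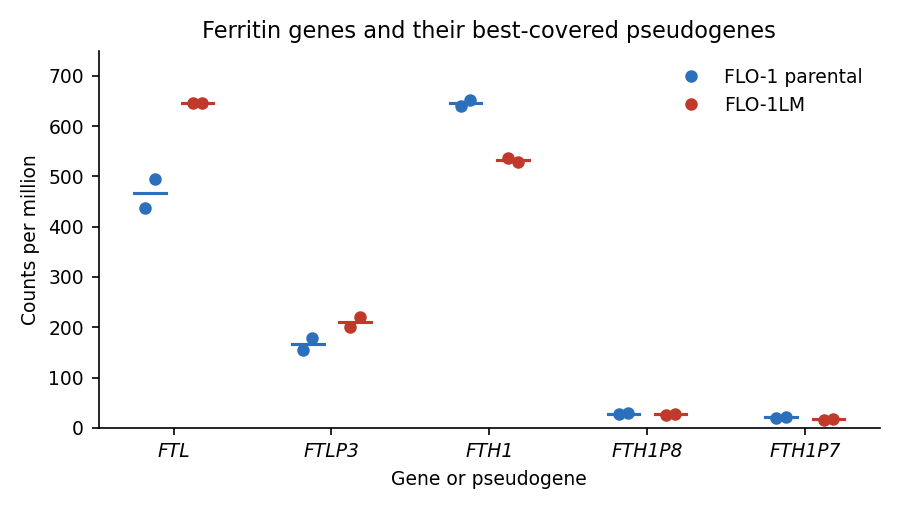
Expression of *FTL*, *FTH1* and their pseudogenes with the most counts in each of the 4 libraries, in CPM on a linear axis from 0, with 1 point per library (blue, parental; red, FLO-1LM) and a short line at the mean of each line of cells. *FTL* and *FTLP3* were higher and *FTH1* lower in both FLO-1LM libraries than in either parental library, and the *FTH1* pseudogenes *FTH1P8* and *FTH1P7* had at most 29.6 CPM.

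The heme and iron list held 9 tested genes, of which 2, *FTL* and *FTH1*, were called by edgeR. The same 2 were the only ones with an unadjusted p below 0.05. Both shares were 22.2%, beside 2.23% and 12.4% of all tested genes. The other genes of the list did not pass the test. The constitutive heme oxygenase gene *HMOX2* had 33.3 and 28.1 CPM in FLO-1LM and 29.8 and 31.3 CPM in parental cells, overlapping between lines, with a log2 fold change of 0.0045 (SE 0.12) whose sign turned with library totals alone. *BLVRB*, a biliverdin reductase gene, had a log2 fold change of 0.16 (edgeR adjusted p = 0.452).

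Removal of superoxide and hydrogen peroxide gave 1 call among 3 tested genes, where 2.23% of all tested genes were called. Of the 3, 2 had an unadjusted edgeR p below 0.05, *SOD2* and *CAT*, or 66.7%, beside 12.4% of all tested genes. *SOD2* (ENSG00000112096), for the mitochondrial superoxide dismutase, had 807.4 and 729.7 CPM in FLO-1LM and 986.9 and 894.7 CPM in parental cells. Both FLO-1LM libraries were below both parental libraries, and *SOD2* was downregulated with a log2 fold change of −0.29 (SE 0.07, interval −0.45 to −0.14, 0.817-fold, edgeR adjusted p = 0.0435). That call lies close to the threshold and was lost without FLO-1LM replicate 2 (−0.22, adjusted p = 0.081), parental replicate 1 (−0.22, adjusted p = 0.744) or parental replicate 2 (−0.36, adjusted p = 0.104). *CAT*, for catalase, had a log2 fold change of 0.21 (adjusted p = 0.373), and *SOD1*, for the cytosolic dismutase, one of 0.12 (adjusted p = 0.530).

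Among the 15 tested regulators and partners of NRF2, 0 passed the test in edgeR and 4 had an unadjusted p below 0.05, or 26.7%, beside 12.4% of all tested genes. These were *NFE2L3*, *MAFG*, *CDKN1A* and *PALB2*. *NFE2L3*, a relative of *NFE2L2*, had 303.8 and 296.2 CPM in FLO-1LM and 268.2 and 239.8 CPM in parental cells, without overlap between lines (log2 fold change 0.24, SE 0.08, edgeR adjusted p = 0.139), and it passed the test without FLO-1LM replicate 2 (0.26, adjusted p = 0.037). Its exons share 1207 bases on the opposite strand with *HNRNPA2B1*, which had 31643 to 40269 counts. *MAFG*, a small MAF partner of NRF2, had a log2 fold change of −0.22 (adjusted p = 0.288). *CDKN1A*, whose product p21 binds NRF2, also had −0.22 (adjusted p = 0.376). Its value rested on which FLO-1LM library was kept, with −0.36 without FLO-1LM replicate 1, which passed the test (adjusted p = 0.0155), and −0.09 without FLO-1LM replicate 2. *PALB2*, for a KEAP1-binding protein, had 0.28 (adjusted p = 0.395). The repressor gene *BACH1* had 48.0 and 49.1 CPM in FLO-1LM and 50.9 and 50.8 CPM in parental cells (log2 fold change −0.07, adjusted p = 0.855). *NFE2L1*, another relative, had a log2 fold change of −0.02 (adjusted p = 0.959).

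In the glutathione list 20 of 26 genes were tested and 0 were called by edgeR, 13 with positive and 7 with negative log2 fold changes, and 2 had an unadjusted p below 0.05, or 10%, beside 12.4% of all tested genes. These were the peroxidase gene *GPX8* (log2 fold change 0.28, edgeR adjusted p = 0.347) and the transferase gene *GSTA4* (0.24, adjusted p = 0.368). *GPX3*, for a secreted peroxidase, followed with −0.55 (adjusted p = 0.405). Both peroxidase genes passed the test without FLO-1LM replicate 1, *GPX8* at 0.45 (edgeR adjusted p = 0.00374) and *GPX3* at −0.85 (adjusted p = 0.0426), and stood at 0.08 and −0.29 without FLO-1LM replicate 2. *SLC7A11*, which encodes the cystine importer that feeds glutathione synthesis, had 13.8 and 22.5 CPM in FLO-1LM and 14.0 and 19.5 CPM in parental cells. Its libraries overlapped fully between lines, with a log2 fold change of 0.12 (SE 0.20, adjusted p = 0.885).

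Among thioredoxin and peroxiredoxin genes 0 of 12 tested were called by edgeR, and the mitochondrial reductase gene *TXNRD2* was the 1 gene with an unadjusted p below 0.05, or 8.33%, beside 12.4% of all tested genes. *TXNRD2* had 300.2 and 315.4 CPM in FLO-1LM and 264.9 and 283.5 CPM in parental cells (log2 fold change 0.17, SE 0.07, edgeR adjusted p = 0.350). *TXNRD3*, the third reductase gene, was low, with 10.9 and 8.08 CPM in FLO-1LM and 12.2 and 11.3 CPM in parental cells (log2 fold change −0.32, SE 0.19, adjusted p = 0.552). *PRDX4*, for a peroxiredoxin of the endoplasmic reticulum, had a log2 fold change of 0.13 (adjusted p = 0.565).

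Genes that supply NADPH, the electron source of both systems, also gave 0 calls by edgeR among 8 tested, with 1 unadjusted p below 0.05, or 12.5%, beside 12.4% of all tested genes. That gene was *NNT*, the mitochondrial transhydrogenase gene, at −0.18 on the log2 scale (edgeR adjusted p = 0.295). The pentose phosphate genes *TKT* and *PGLS* had log2 fold changes of 0.13 (adjusted p = 0.560) and 0.15 (adjusted p = 0.586).

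In the quinone, carbonyl and xenobiotic list 9 of 16 genes were tested, and edgeR gave 0 calls and 0 unadjusted p below 0.05. Several aldo-keto reductase relatives of *AKR1B10* were at or near 0. *AKR1C2* and *AKR1B15* had 0 counts in all 4 libraries, *AKR1C3* had 8, 0, 1 and 0 counts, and *AKR1C1* had 0.673 and 2.25 CPM in FLO-1LM and 0.862 and 1.51 CPM in parental cells. These genes are close paralogs, and reads could be split between them. *AKR1B1*, the aldose reductase gene, was expressed, with 76.3 and 87.3 CPM in FLO-1LM and 72.0 and 74.7 CPM in parental cells (log2 fold change 0.16, SE 0.09, edgeR adjusted p = 0.518). *AKR1A1*, the aldehyde reductase gene, was expressed as well, with 143.5 and 146.9 CPM in FLO-1LM and 136.2 and 146.8 CPM in parental cells, which overlapped. *NQO2*, the relative of *NQO1*, had 31.2 and 30.5 CPM in FLO-1LM and 34.4 and 36.5 CPM in parental cells, lower in both FLO-1LM libraries (log2 fold change −0.20, SE 0.11, adjusted p = 0.491). *PTGR1*, for a prostaglandin reductase, had −0.11 (adjusted p = 0.632).

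Of 4 tested efflux transporter genes and 4 other commonly listed NRF2 targets, 0 passed the test in edgeR and 0 had an unadjusted p below 0.05. Log2 fold changes were −0.16 for *ABCC5*, 0.10 for *ABCC4* and −0.04 for *ABCC1* among the transporters. They were −0.12 for *ABHD4*, −0.28 for *TRIM16L* and 0.04 for *OSGIN1* among the other targets, and the lowest adjusted p in either list was 0.484. *TRIM16L* is a transcribed pseudogene in the annotation used, with 72 and 168 counts in FLO-1LM and 129 and 116 in parental cells. Its reads may be shared with related genes. *TRIM16L* passed the test without FLO-1LM replicate 2, at −0.88 (edgeR adjusted p = 0.0393), and was at 0.13 without FLO-1LM replicate 1.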

How the data were processed

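RNAseq was carried out by the authors on total RNA from 2 FLO-1LM and 2 FLO-1 parental libraries, grouped by the sample labels. The authors made strand-specific libraries, read them on an Illumina NextSeq, converted and trimmed the reads (bcl2fastq 2.17 and Trimmomatic 0.30, per the submitters' processing notes), mapped them to GRCh37 with an unnamed short read aligner, and deposited raw counts per Ensembl gene without normalization. Which program counted the reads, and whether it used strand, is not given in the sources used here.

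From these counts, genes were filtered with filterByExpr at its defaults (minimum count 10, minimum total 15), scaled by TMM and tested across all 17143 kept genes with edgeR 4.0.16 (glmQLFit and glmQLFTest, R 4.3.3), with Benjamini-Hochberg adjustment and a threshold of 0.05. The study used limma voom, which was run as an alternative. CPM are counts scaled to a common library size with TMM factors, and SE is the size of the log2 fold change over the root of the F statistic. Intervals are at 95%. With 2 libraries per line an exact permutation test of 1 gene cannot go below p = 0.333. Positions and exon lengths are from GENCODE mapped to GRCh37, a later annotation than the one counted on, and 437 tested genes have no position in it. The identifier of *SOD2* was paired with its name through the study's own gene table, and *PECAM1* was not matched. The script was tested on simulated counts with planted log2 fold changes of 1 or 2 in either direction and the same dispersion for every gene. That test does not cover changes as small as those of the members.

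The members and lists were chosen with earlier results of these data known. Genes named are every member, the genes past the threshold and the 3 with the smallest p in each list, relatives of the members together with *BACH1* and *SLC7A11*, and the 3 genes nearest in pattern to the member with the smallest p. *PALB2*, *FTLP3*, *TXNIP*, *GSTM1*, *AKR1A1* and genes that overlap or neighbour members were named after their values were seen. So were the cell type markers *KRT8*, *KRT18*, *SERPINA1* and *COL1A1*. Alternatives were DESeq2 1.42.0, limma voom 3.58.1, RLE factors, library totals, no filter, at least 10 counts in every library, mitochondrial genes left out, each library left out and the longest transcript as length. Ferritin counts with pseudogenes added were an alternative chosen after seeing the data. The ratio of *FTL* to *FTH1* was not among the planned results either.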

Additional observations from a re-analysis of the deposited data

How the results depend on the processing

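The count of called members was 0 under every alternative that kept all 4 libraries, and 0 to 1 with a library left out, the 1 being *GCLM*. Called pathway genes numbered 3 with all libraries and 0 to 8 with 1 left out (8 without FLO-1LM replicate 1, 6 without FLO-1LM replicate 2, 0 without parental replicate 1 and 1 without parental replicate 2). The lone library is then assumed to vary like the pair that remains, and calls over all genes ran from 97 to 1095 in these fits, against 382. Without a filter 577 of 26287 genes were called. Of 77 alternative values of the 7 tested members, 70 kept their direction and side of the threshold, 6 turned sign and 1 passed the test. Log2 fold changes with 1 library left out ran from −0.0041 to 0.18 for *KEAP1*, −0.013 to 0.15 for *NQO1*, −0.33 to 0.032 for *GCLM*, 0.06 to 0.16 for *HMOX1*, −0.17 to −0.0062 for *GCLC*, −0.023 to 0.034 for *TXNRD1*, −0.063 to 0.026 for *NFE2L1*, −0.12 to 0.13 for *HMOX2*, −0.88 to 0.13 for *TRIM16L*, −0.14 to 0.20 for *OSGIN1*, −0.28 to 0.43 for *SLC7A11* and −0.80 to 0.94 for *AKR1C1*. With library totals alone, *TXNRD1* was at −0.025 and *HMOX2* at −0.027, and *HMOX2* was at −0.0044 with limma voom and −0.0014 with at least 10 counts in every library. The level of *TXNRD1* was 7.28 times that of *HMOX1* with the longest transcript as length. Why these values moved was not tested. With 2 libraries per line, no 95% interval of the 7 tested members went below 0.787-fold or above 1.22-fold. Values within the interval of a member, no difference included, cannot be told apart for that member. No paired analysis was possible because the labels number the 4 libraries consecutively and give the lines no shared replicate numbers. Replicates 1 and 2 are names given here in sample order and tie no library of 1 line to a library of the other.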

Other observations

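Tested genes near *TXNRD1* on chromosome 12 had lower CPM than *TXNRD1*, without division by gene length. Within 500000 bases on either side, 10 other protein-coding genes were tested, with mean CPM from 2.53 to 1493, and 0 of them were called between the lines by edgeR, beside 2.23% of all tested genes, while 2 of the 10, *CHST11* and *EID3*, had an unadjusted p below 0.05, beside 12.4%. The highest was *HSP90B1*, an endoplasmic reticulum chaperone gene, with 1511 ± 17.1 CPM in FLO-1LM and 1476 ± 14.2 CPM in parental cells (SD, n = 2 each). Inside the span of *TXNRD1* and on its strand lie *EID3*, with 177.9 ± 11.1 and 157.0 ± 5.81 CPM, and the pseudogene *RPL18AP3*, with 239.2 ± 15.8 and 235.9 ± 34.5 CPM. Per kilobase of exon, the mean over the 4 libraries was 450 for the short *RPL18AP3*, near the 470.7 of *TXNRD1*. It was 114.1 for *HSP90B1* and 114.1 for *EID3*. *EID3* had a log2 fold change of 0.18 (SE 0.08, edgeR adjusted p = 0.345).

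The 3 genes whose pattern over the 4 libraries was nearest to that of *NFE2L2* were *NF2*, *HERC4* and *GNA13*, with root mean square distances of 0.0074, 0.0076 and 0.0078 in centred log2 CPM, out of 3541 genes of a similar level. With only 4 libraries and so many candidates, some close matches would be found for almost any gene. The nearness does not show shared regulation.

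*GSTM1*, a glutathione transferase gene, had the highest log2 fold change of the tested pathway genes, 1.24 (SE 0.65, interval −0.12 to 2.59, edgeR adjusted p = 0.462), on 23 and 27 counts in FLO-1LM and 9 and 9 in parental cells. It was singled out after its value was seen, and its reads may be shared with the other *GSTM* paralogs.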
